A study of Mus musculus with 6 samples.

Results

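The T cell receptor complex and the signalling proteins that act next to it were described here through 46 genes. They were chosen by name for their roles in the pathway, with earlier results of these data known. Of these, 44 matched probe sets that carry exactly 1 gene symbol, 112 probe sets in all, and each of the 44 passed the filter on dim genes. Lck and Itpr1 are not analysed here. A gene with several probe sets was represented by the brightest on average. On the whole array 18193 genes were so represented, and 13194 were tested.

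The samples were P14 cytotoxic T cells, CD8 T cells of C57Bl/6 background whose transgenic receptor recognises the viral peptide gp33. Cultures started from spleen were activated for 24 h with gp33 and infected with a retrovirus that carries an HDAC7 mutant, fused to GFP, that cannot be phosphorylated. HDAC7 is a histone deacetylase that represses genes from the nucleus and leaves it once phosphorylated. Cells were then sorted by GFP. The 3 GFP positive samples carry the mutant, and the 3 GFP negative samples are the control, being cells of the infected cultures that do not show GFP. All 6 samples therefore share the P14 receptor, the peptide and exposure to virus, and an empty vector is not analysed here. The sample titles call each sample a biological replica and use the same replica numbers in both groups. Which animals or cultures the replicates of a group came from is not given in the labels. The p-values therefore measure the spread between these samples, which may be in part technical. In bulk RNA, fewer cells of a type and less RNA per cell cannot be told apart.

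The receptor recognises peptide on MHC through its antigen-binding chains, and passes the signal on through CD3 and zeta chains, which carry tyrosine motifs. CD8 binds MHC class I and brings the kinase LCK, which phosphorylates those motifs so that ZAP70 docks and phosphorylates the adaptors LAT and SLP-76. From that platform phospholipase C gamma opens the calcium, calcineurin and NFAT arm, exchange factors switch on RAS and RAC, and protein kinase C theta feeds the BCL10 and MALT1 complex toward NF-kB. Phosphatases, ubiquitin ligases and diacylglycerol kinases hold the pathway in check.

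Values are the deposited log2 signals, and a change is the GFP positive mean minus the GFP negative mean on that scale. A gene was called higher or lower when its limma p, adjusted by Benjamini-Hochberg over all 13194 genes, was under 0.05. Hdac7 itself, the check of the labels, read 4.81 to 4.86 in GFP negative and 8.09 to 8.18 in GFP positive samples on its representing probe set. Another Hdac7 probe set went from a mean of 6.74 to 6.19, a change of -0.55. That set was the brighter in GFP negative cells, and the representing set became the brightest on average through its GFP positive values. Array medians were 1.69 to 1.72 in GFP negative and 1.62 to 1.66 in GFP positive samples, so the groups were apart in their medians. The cause of that was not tested. Control probe sets for a bacterial transcript (TrpnX), absent from mouse, read 0.60 to 0.72. The signal of actin control probe sets at the 3′ end exceeded that at the 5′ end by 0.43 to 0.51 in GFP negative and 0.48 to 0.53 in GFP positive arrays. Of 7 matched T cell identity genes (5 are members, and Trac is not analysed here) 4 rose and 1 (Cd2, an adhesion receptor) fell by 1.03, and their summed linear signal was 5993 to 7227 in GFP negative and 7992 to 9012 in GFP positive samples. The summed signal of 6 B cell markers was 33.9 to 45.0 against 32.2 to 39.2, and of 7 myeloid markers 21.8 to 24.5 against 23.8 to 25.8. Of the myeloid markers, Cd68 rose from 1.76 to 2.86, and Itgam, Adgre1, Cd14 and Csf3r lay under the dim filter, as did Ms4a1 and Blk of the B cell list. Of the helper and regulatory cell markers, Cd4 read 2.87 and 2.82 and Foxp3 lay under the filter. Ctla4, which activated CD8 T cells also express, fell by 0.63. Of 4 dendritic cell markers tested 3 fell (summed signal of the list 19.8 to 19.9 against 14.9 to 17.6), with Xcr1 under the filter. Of the natural killer cell list, Eomes, also a factor of CD8 effector cells, went from 7.18 to 4.90, and Ncr1 and Klra8 lay under the filter. The part of these cell types in the results below was not tested.

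Most receptor chains and most genes of the calcium arm were higher in GFP positive cells, as were 5 of 9 adaptors. The genes of the kinases ZAP70 and protein kinase C theta and the paracaspase gene Malt1 were lower. With the mean of a gene's probe sets, 5 receptor, 4 calcium and NFAT and 4 adaptor genes were called higher. Of the 44 members, 24 rose, 4 fell and 16 did not pass. That is 54.5% higher and 9.09% lower, beside 24.6% higher and 17.5% lower (42.1% called) among all genes tested. The median change was 0.28 over the members and -0.02 over all genes. In 28 members every GFP positive sample lay above every GFP negative sample, and in 5 every one lay below, where 29.7% and 24.2% of all genes did so (53.8% in either direction). With the replicate number as a block, 24 members were higher and 4 lower, beside 25.5% and 18.8% of all genes (44.4% in either direction). No test of the list against other genes was made, and the list was chosen with earlier results of these data known. Of the 44 members, 3 (Cd8a, Cd8b1 and Malt1) changed at least 2-fold, beside 706 of all 13194 genes tested. The median absolute change was 0.38 over the members and 0.25 over all genes. The count of lower members was 2 without GFP negative 1, without GFP negative 2 or without GFP positive 3, as Prkcq and Ubash3b then lost their calls. The share of calls that were higher, over all genes, was 58.4% on the deposited values. It was 49.0% with quantile normalized arrays and 39.6% with arrays centred on their medians. Centring moved the median of all genes from -0.02 to -0.14. Among the members 20 were then higher and 6 lower, with a median change of 0.16.

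**Figure D1:**
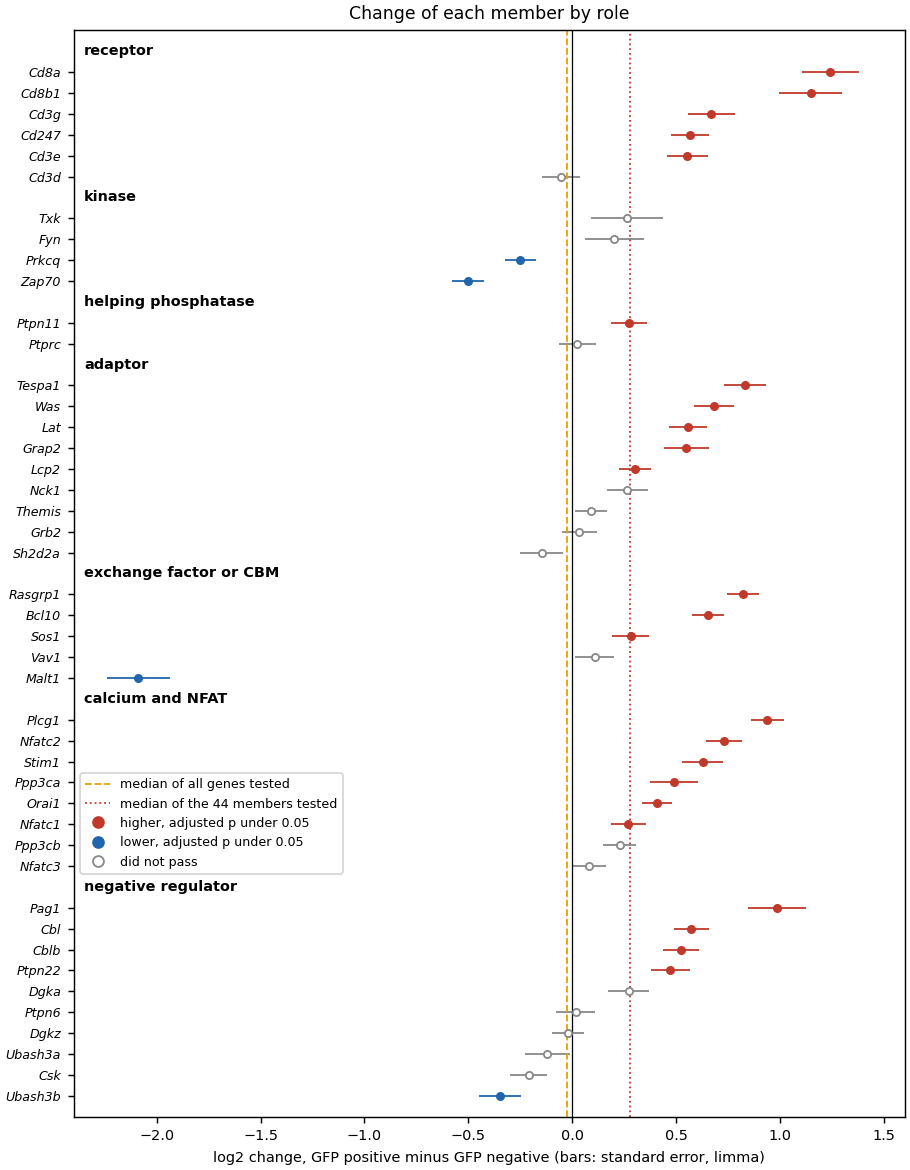
Change of each of the 44 tested members between GFP positive and GFP negative cells (log2, x axis), grouped by role, with the standard error of limma as bars. All receptor genes but Cd3d and all calcium and NFAT genes lie to the right of the median of all genes (-0.02), Zap70 and Prkcq lie to its left, and Malt1 stands at -2.09.

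Receptor and coreceptor chains formed the group with the highest median change, 0.62, with 5 of 6 genes higher, beside 24.6% of all genes tested. Cd8a encodes the CD8 alpha chain, which binds LCK. It read 8.97, 8.84 and 9.18 in GFP negative samples 1, 2 and 3 and 10.24, 10.00 and 10.47 in GFP positive samples 1, 2 and 3. Every GFP positive sample was above every GFP negative one, a rise of 1.24 ± 0.14 (SE, limma adjusted p = 3.3e-04), or 2.37-fold. Its partner Cd8b1, the beta chain, read 9.70, 9.31 and 9.64 and then 10.73, 10.44 and 10.93, again with the groups apart. The rise of Cd8b1 was 1.15 ± 0.15 (limma adjusted p = 7.0e-04). The 2 genes are neighbours in the genome, and their changes differed by 0.10 ± 0.09 (SE), with the groups overlapping in the difference. Among the other Cd8a probe sets, 3 rose by 1.00 to 1.38 and the dimmest changed by 0.32 without passing.

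The CD3 genes did not move together. Cd3e (CD3 epsilon) read 6.81, 6.72 and 6.85 in GFP negative and 7.31, 7.22 and 7.52 in GFP positive samples, a rise of 0.55 ± 0.10. Cd3g (CD3 gamma) read 9.29, 9.58 and 9.63 and then 10.04, 10.21 and 10.25, a rise of 0.67 ± 0.11. The groups were apart for both genes, with limma adjusted p of 0.0031 and 0.0022. Cd3d (CD3 delta), by contrast, read 10.38, 10.37 and 10.39 and then 10.50, 10.27 and 10.22. GFP positive sample 1 lay above the GFP negative samples and the other two below, so no direction is given for Cd3d (change -0.05, 95% interval -0.27 to 0.16, limma adjusted p = 0.663). The change of Cd3g exceeded that of Cd3d by 0.72 ± 0.18 (SE of the per-array difference), and that of Cd3e did so by 0.61 ± 0.15, with the groups apart in both differences. Each of the 3 genes has 1 probe set, so no other probe set bears on this. Cd247, the zeta chain gene, read 8.64, 8.57 and 8.69 and then 9.33, 9.08 and 9.20. All GFP positive samples were higher, a rise of 0.57 ± 0.09 (limma adjusted p = 0.0018), and its other probe sets rose by 0.50 and 0.70.

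**Figure D2:**
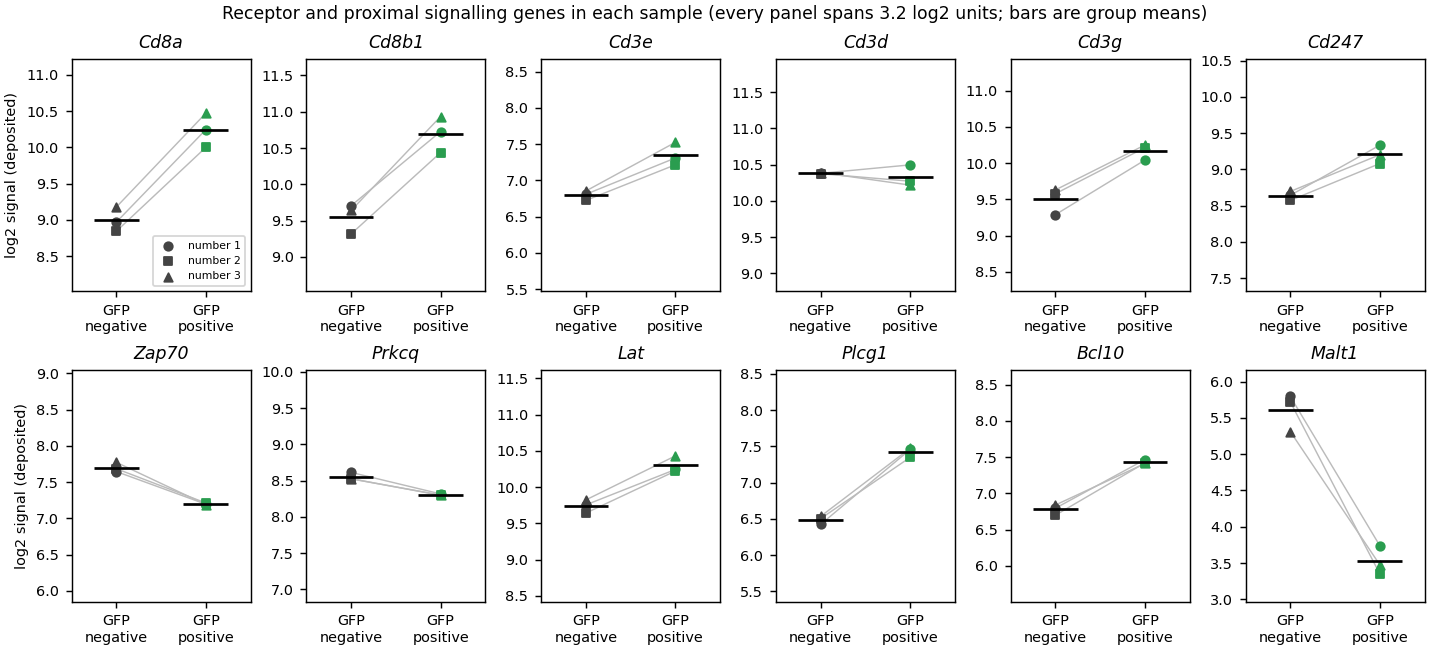
Deposited log2 signal (y axis) of selected members in each of the 6 samples, with symbols for the replicate number, grey lines joining equal numbers and black bars for group means. All panels span the same range. The lines rise for Cd8a, Cd8b1, Cd3e, Cd3g, Cd247, Lat, Plcg1 and Bcl10, cross for Cd3d, and fall for Zap70, Prkcq and Malt1, where GFP negative samples read 5.31 to 5.80 and GFP positive 3.35 to 3.74.

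Cd3g and Cd3d differed in measured change, and their start sites lie 1355 bases apart on opposite strands. The 250 bases upstream of their starts are shown with those of Cd3e, next to them, and of Cd8a. The Cd3g and Cd3d windows were picked after these changes were seen, and the cause of the difference was not tested. The sequences are from RefSeq on GRCm38.p6, written 5′ to 3′ on the strand of the gene. The windows are chr6:71373177-71373426 (plus) for Cd8a, chr9:45009612-45009861 (minus) for Cd3e, chr9:44980432-44980681 (minus) for Cd3g and chr9:44981536-44981785 (plus) for Cd3d. Capitals mark GGAAG, a core bound by ETS factors, and GGAAA, a core bound by NFAT, on either strand, so that CTTCC and TTTCC are the same letters read from the other strand.
Cd8a: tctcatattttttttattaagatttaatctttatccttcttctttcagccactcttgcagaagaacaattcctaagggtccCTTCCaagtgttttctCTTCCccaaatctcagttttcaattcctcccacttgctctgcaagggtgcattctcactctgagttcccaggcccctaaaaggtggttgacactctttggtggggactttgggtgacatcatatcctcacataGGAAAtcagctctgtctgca
Cd3e: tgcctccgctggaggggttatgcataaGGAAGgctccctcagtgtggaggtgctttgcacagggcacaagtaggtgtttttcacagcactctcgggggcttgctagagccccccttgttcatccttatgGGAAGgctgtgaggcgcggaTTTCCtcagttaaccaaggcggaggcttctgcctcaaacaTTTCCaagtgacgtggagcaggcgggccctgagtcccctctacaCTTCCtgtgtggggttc
Cd3g: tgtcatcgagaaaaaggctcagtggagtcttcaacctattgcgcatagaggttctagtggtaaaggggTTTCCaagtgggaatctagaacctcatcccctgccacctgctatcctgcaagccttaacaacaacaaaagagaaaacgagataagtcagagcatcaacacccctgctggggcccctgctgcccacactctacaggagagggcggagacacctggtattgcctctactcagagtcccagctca
Cd3d: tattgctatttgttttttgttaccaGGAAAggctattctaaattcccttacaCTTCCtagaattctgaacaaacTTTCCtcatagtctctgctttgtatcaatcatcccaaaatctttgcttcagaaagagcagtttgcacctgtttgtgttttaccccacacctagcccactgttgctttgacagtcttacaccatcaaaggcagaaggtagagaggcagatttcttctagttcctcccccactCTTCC

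Cd3e held 3 matches to GGAAG and 2 to GGAAA, Cd3d held 2 and 2, and Cd8a held 2 and 1. Cd3g, which rose, held 1 match to GGAAA and none to GGAAG in this window. Other forms of the ETS core were not counted. Such short words are common. Of 55 windows of 38 members, 72.7% held GGAAG and 69.1% GGAAA, beside 64.1% and 55.6% of all 32851 windows. TGTGGT, a core bound by RUNX factors, was in 10.9% of member windows and 14.0% of all. A match is a string of letters and shows no binding.

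Among the 4 kinase genes measured, 2 fell and 2 did not pass, where 17.5% of all genes tested were lower and 24.6% higher. Zap70, whose product docks on phosphorylated CD3 and zeta chains, read 7.65, 7.68 and 7.77 in GFP negative and 7.19, 7.21 and 7.19 in GFP positive samples. Every GFP positive sample was lower, and their SD was 0.01. The fall was 0.50 ± 0.08 on the log2 scale (limma adjusted p = 0.0014), or 1.42-fold. Another Zap70 probe set fell by 0.62, and the dimmest changed by -0.23 without passing. Prkcq, the gene of protein kinase C theta, read 8.61, 8.53 and 8.52 and then 8.32, 8.30 and 8.30. The groups were apart, but the fall of 0.25 ± 0.07 (limma adjusted p = 0.027) was small. It lost its call when GFP negative 1, 2 or 3 or GFP positive 2 or 3 was left out, with changes of -0.26 to -0.22 and limma adjusted p of 0.059 to 0.088.

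The Src-family kinase gene Fyn and the TEC-family kinase gene Txk had overlapping groups. Fyn read 7.41, 7.03 and 7.37 and then 7.41, 7.31 and 7.71 (change 0.20, 95% interval -0.12 to 0.53, limma adjusted p = 0.273). Txk read 5.81, 5.13 and 5.17 in GFP negative and 5.57, 5.64 and 5.69 in GFP positive samples, so that GFP negative 1 alone lay above the GFP positive samples. Its change was 0.26 (limma adjusted p = 0.255). Without GFP negative 1, Txk was higher by 0.48 with a limma adjusted p of 0.0077. The phosphatase CD45, encoded by Ptprc, removes the inhibitory phosphate from LCK. Ptprc had overlapping groups, at 11.41, 11.23 and 11.40 and then 11.45, 11.28 and 11.38 (95% interval of the change -0.18 to 0.23). A dimmer Ptprc probe set changed by 0.80 without passing, with an SD of 1.04 among the GFP positive samples. Ptpn11, which encodes SHP2, a phosphatase that promotes RAS signalling, read 6.88, 7.07 and 6.88 and then 7.16, 7.22 and 7.29. Its rise of 0.27 (limma adjusted p = 0.037) was not called when GFP negative 1 or 3 or GFP positive 2 or 3 was left out, at 0.24 to 0.27 and limma adjusted p of 0.083 to 0.119. Quantile normalization (0.21), median centring (0.16) and the mean of its probe sets (0.15) ended the call of Ptpn11 too.

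Of 9 adaptor genes 5 rose (55.6%, beside 24.6% of all genes tested) and 4 did not pass, with a median change of 0.30. Lat, the membrane platform that ZAP70 phosphorylates, read 9.76, 9.64 and 9.82 in GFP negative and 10.24, 10.22 and 10.43 in GFP positive samples. The groups were apart, with a rise of 0.56 ± 0.09 (limma adjusted p = 0.0021). The RNAs of the kinase and its substrate thus changed in opposite directions, Lat exceeding Zap70 by 1.06 ± 0.08 (SE of the per-array difference). Grap2 encodes GADS, which links LAT to SLP-76. It read 5.81, 5.70 and 5.92 and then 6.23, 6.28 and 6.55, a rise of 0.55 ± 0.11 (limma adjusted p = 0.0048), while its dimmer probe set changed by 0.13 and the mean of its probe sets by 0.34 (limma adjusted p = 0.052). Lcp2, the SLP-76 gene, rose by 0.30 ± 0.08 (limma adjusted p = 0.015), from 8.34 to 8.42 in GFP negative samples to 8.62 to 8.74 in GFP positive ones. Lcp2 lost its call without GFP negative 3 (0.28, limma adjusted p = 0.057) and after median centring (0.19).

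Tespa1 and Was had the largest changes of the 9 adaptor genes. Tespa1 encodes a thymocyte protein that binds the inositol trisphosphate receptor and helps calcium release. It read 5.21, 4.99 and 5.27 and then 5.88, 5.99 and 6.08, a rise of 0.83 ± 0.10 (limma adjusted p = 5.0e-04), and 0.50 when 32 was added to the linear signals, which damps low values. Its other probe sets rose by 1.22 and 1.25. Was, the Wiskott-Aldrich syndrome gene, drives actin assembly at the synapse. It read 7.89, 7.81 and 7.95 and then 8.48, 8.49 and 8.73, a rise of 0.68 ± 0.09 (limma adjusted p = 9.3e-04). Every GFP positive sample of both genes lay above the GFP negative ones.

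Of the adaptors that did not pass, Grb2 and Themis lay nearest to zero change. Sh2d2a, which encodes the LCK-binding adaptor TSAd, had the lowest change of the class, at 7.12, 7.17 and 7.26 and then 6.84, 7.10 and 7.17, with the groups overlapping (-0.15, limma adjusted p = 0.285). Grb2 changed by 0.03 and Themis, a regulator of SHP1 and of thymocyte selection, by 0.09. Themis has 4 probe sets, and the dimmest of them rose by 0.82 (limma adjusted p = 0.030 over all probe sets) while the other 2 changed by -0.06 and 0.02. Nck1, an adaptor to actin regulators, changed by 0.27 with the groups apart (limma adjusted p = 0.064) and passed without GFP negative 1 (0.35, limma adjusted p = 0.030).

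HDAC7 is known to repress genes through MEF2 factors, so the windows were also read for the MEF2 consensus. It was in 1 of 55 member windows (1.82%), that of Grap2, beside 2.92% of all windows. The Grap2 window is chr15:80623233-80623482 (plus, GRCm38.p6, RefSeq), with the MEF2 match in capitals.
Grap2: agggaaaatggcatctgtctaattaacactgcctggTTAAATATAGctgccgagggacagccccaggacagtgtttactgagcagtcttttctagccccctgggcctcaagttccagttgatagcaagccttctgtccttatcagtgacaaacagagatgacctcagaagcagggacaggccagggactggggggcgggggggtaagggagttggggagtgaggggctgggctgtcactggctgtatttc
A window without the match says only that these letters are not in it.

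The exchange factors and the BCL10 and MALT1 complex held the widest contrast. Rasgrp1, the diacylglycerol-dependent activator of RAS, read 7.85, 7.75 and 7.78 in GFP negative and 8.56, 8.61 and 8.67 in GFP positive samples. The groups were far apart relative to their spread, with a rise of 0.82 ± 0.08 (limma adjusted p = 1.8e-04). Of its dimmer probe sets 1 rose by 0.55 and the others, at 0.28 and 0.24, did not pass, and the mean of its probe sets changed by 0.47, still called. Sos1, the other RAS activator, read 4.60 to 4.81 and then 4.87 to 5.04. Its rise of 0.28 ± 0.09 (limma adjusted p = 0.038) was not called with the replicate number as a block (limma adjusted p = 0.058). Nor was it called when GFP negative 2 or 3 or GFP positive 2 or 3 was left out (0.24 to 0.28, limma adjusted p = 0.090 to 0.116), after quantile normalization (0.11) and after median centring (0.17). A dimmer Sos1 probe set rose by 0.67, and the mean of its probe sets by 0.47. Vav1, an exchange factor for RAC, changed by 0.11 (95% interval -0.11 to 0.33, limma adjusted p = 0.377).

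Bcl10 and Malt1, whose products form one complex, moved in opposite directions. Bcl10 read 6.80, 6.70 and 6.84 and then 7.47, 7.42 and 7.41, a rise of 0.65 ± 0.08 (limma adjusted p = 4.3e-04). Its other probe sets changed by 0.66, 0.54 and 0.21, the last without passing. Malt1, the paracaspase, read 5.80, 5.72 and 5.31 in GFP negative samples and 3.74, 3.35 and 3.48 in GFP positive samples. No GFP positive sample came near a GFP negative one, and the change was -2.09 ± 0.15 (limma adjusted p = 7.4e-05), or 4.25-fold lower. The other Malt1 probe set past the filter changed by -1.04 ± 0.23 (limma adjusted p = 0.011 over all probe sets). With 32 added in linear units the change of Malt1 was -0.90, still called, so its size depends on how low signals are treated. Bcl10 exceeded Malt1 by 2.74 ± 0.21 in change (SE of the per-array difference).

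**Figure D3:**
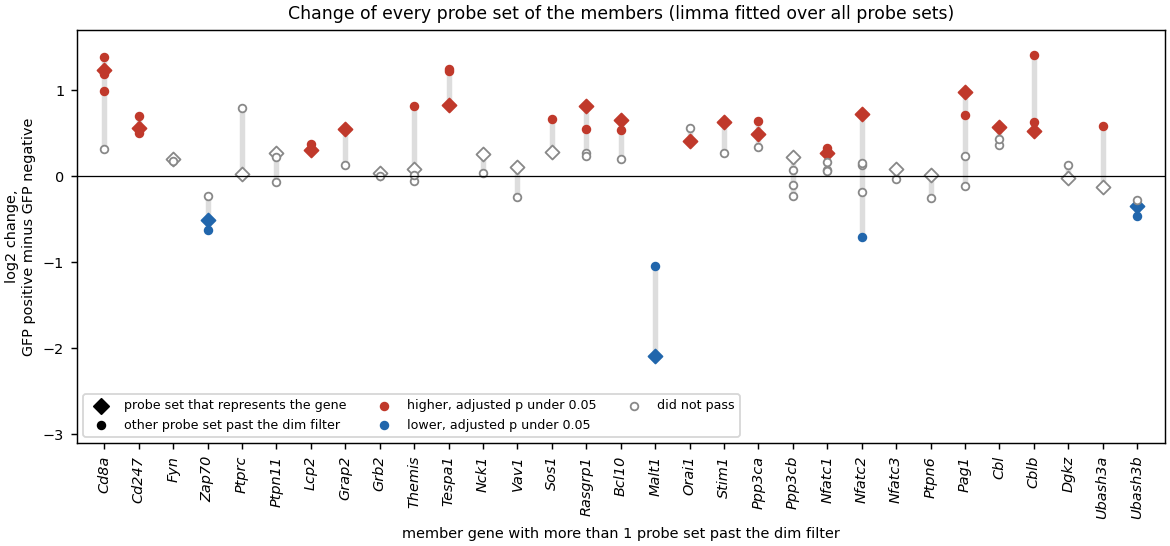
Change (log2, y axis) of every probe set past the dim filter for members with more than 1, from limma fitted over all probe sets, with diamonds for the probe set that represents the gene. Most sets of a gene lie on the same side of zero; those of Nfatc2 run from -0.70 to 0.73, and those of Malt1 both lie below zero.

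In the calcium and NFAT arm 6 of 8 genes rose, beside 24.6% of all genes tested, and 2 did not pass. The median change was 0.45. Plcg1, the phospholipase that cleaves membrane lipid into inositol trisphosphate and diacylglycerol, read 6.43, 6.50 and 6.54 and then 7.46, 7.35 and 7.47. The rise of 0.94 ± 0.08 (limma adjusted p = 1.2e-04), or 1.92-fold, separated the groups. Stim1 senses empty calcium stores and opens the ORAI1 channel. Stim1 read 5.71, 5.74 and 5.96 and then 6.32, 6.52 and 6.44, a rise of 0.63 ± 0.10 (limma adjusted p = 0.0017). Its other probe set changed by 0.28 without passing (limma adjusted p = 0.052 over all probe sets). Orai1 read 5.42 to 5.47 and then 5.84 to 5.86, a rise of 0.41 ± 0.07 (limma adjusted p = 0.0027). The spread of Orai1 was narrow in both groups, and its rise was 0.25 with 32 added in linear units. Its dimmer probe set changed by 0.57 without passing.

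Calcineurin, the calcium-activated phosphatase, has catalytic subunits from several genes. Ppp3ca (alpha) rose by 0.49 ± 0.12 (limma adjusted p = 0.011), from 5.71 to 5.94 in GFP negative samples to 6.14 to 6.52 in GFP positive ones. Ppp3cb (beta) changed by 0.23 ± 0.08 with the groups apart, at a limma adjusted p of 0.05001, and was called with the replicate block (limma adjusted p = 0.0455). Without GFP positive 1, Ppp3cb was also called (0.26, limma adjusted p = 0.0499), but the mean of its probe sets changed by -0.0056.

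NFAT factors are the targets of calcineurin and carry the calcium signal to the nucleus. Nfatc2 read 7.54, 7.33 and 7.48 and then 8.14, 8.14 and 8.26, a rise of 0.73 ± 0.09 (limma adjusted p = 4.9e-04). Its next brightest probe set, at 3.86 in GFP negative cells, fell by 0.70 (limma adjusted p = 0.012 over all probe sets), and the mean of its 5 probe sets past the filter changed by 0.03 (limma adjusted p = 0.806). The direction given for Nfatc2 is thus that of its brightest probe set. Nfatc1 read 6.32, 6.44 and 6.37 and then 6.64, 6.56 and 6.75. Its rise of 0.27 (limma adjusted p = 0.033) was not called after quantile normalization (0.17) or median centring (0.15), with the mean of its probe sets (0.18), or when GFP negative 1, 2 or 3 or GFP positive 1 or 3 was left out (0.22 to 0.30, limma adjusted p = 0.052 to 0.098). Nfatc3 had overlapping groups, at 7.26, 7.41 and 7.39 and then 7.46, 7.39 and 7.45 (change 0.08, limma adjusted p = 0.429).

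Among 10 negative regulators, 4 were higher, 1 was lower and 5 did not pass, and the median change was 0.14. Pag1 encodes the membrane anchor that brings the inhibitory kinase CSK to LCK. It read 7.06, 6.63 and 7.02 in GFP negative and 7.97, 7.69 and 8.01 in GFP positive samples, a rise of 0.99 ± 0.14 (limma adjusted p = 0.0010). Another Pag1 probe set rose by 0.72, those at -0.11 and 0.24 did not pass, and the mean of its probe sets changed by 0.46, still called. Csk itself went from 8.25, 8.21 and 8.42 to 8.09, 8.15 and 8.02, with the groups apart but without passing (-0.21, limma adjusted p = 0.092). Csk was called lower after median centring (-0.32).

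Both ubiquitin ligase genes, whose products mark activated signalling proteins for degradation, rose. Cbl read 6.62, 6.61 and 6.56 and then 7.23, 7.05 and 7.23, a rise of 0.57 ± 0.08 (limma adjusted p = 0.0012). Its dimmer probe sets changed by 0.37 and 0.43 without passing. Cblb read 6.13, 6.34 and 6.16 and then 6.69, 6.75 and 6.77, a rise of 0.52 ± 0.09 (limma adjusted p = 0.0020). Its other probe sets rose by 0.64 and 1.41, and the mean of its probe sets by 0.86. Ptpn22, a phosphatase that works with CSK, rose by 0.47 ± 0.09 (limma adjusted p = 0.0050), from 7.51 to 7.77 in GFP negative samples to 8.02 to 8.11.

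The remaining inhibitors moved less. Ubash3b, the gene of the phosphatase STS1, which acts on ZAP70, read 5.91, 5.89 and 5.75 and then 5.40, 5.68 and 5.42. Its fall of 0.35 ± 0.10 (limma adjusted p = 0.027) was not called when GFP negative 1 or 2 or GFP positive 1 or 3 was left out, at -0.33 to -0.30 and limma adjusted p of 0.068 to 0.084, and was 0.21 with 32 added in linear units. Another Ubash3b probe set fell by 0.46. Ubash3a, its relative, had overlapping groups (-0.12, limma adjusted p = 0.400), while its dimmer probe set rose by 0.59. Of the diacylglycerol kinase genes, Dgka changed by 0.27 (limma adjusted p = 0.055) and passed without GFP negative 2 (0.34, limma adjusted p = 0.043), and Dgkz by -0.02. Ptpn6, which encodes SHP1, changed by 0.02 (95% interval -0.20 to 0.23).

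Probe sets not used to represent a gene gave a check within these arrays. The 28 called members had 43 other probe sets past the dim filter, in 20 genes. Of these, 39 (90.7%) changed in the direction of the representing set, beside 83.7% for all called genes. With limma fitted over 23018 probe sets, where 20.4% were called higher and 14.3% lower (34.7% in all), 20 of the 43 (46.5%) passed the same way and 1 the opposite way, that of Nfatc2. Over all called genes, 2167 of 4867 other probe sets (44.5%) passed the same way and 66 the opposite way, so the members' share lay near that of all genes. Differences within replicate numbers were also read. All 3 were above zero in 29 members and below zero in 6, where 35.7% and 33.3% of all genes were so. For Cd8a they were 1.28, 1.16 and 1.30, for Zap70 -0.45, -0.47 and -0.58, and for Malt1 -2.06, -2.37 and -1.84.

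Other genes of the pathway, from a list of 79 of which 62 were tested, gave 29 higher (46.8%), 6 lower (9.68%) and 27 that did not pass, beside 24.6% higher and 17.5% lower among all genes. Their median change was 0.26, against -0.02 over all genes. That list too was chosen with earlier results of these data known. The adaptor gene Nck2 rose by 1.14 ± 0.08, from 5.27 ± 0.06 to 6.41 ± 0.07 (SD, n = 3, limma adjusted p = 6.6e-05), where its relative Nck1 did not pass. The inositol trisphosphate receptor gene Itpr2 rose by 1.58 ± 0.12 (limma adjusted p = 7.6e-05), and by 0.94 with 32 added in linear units. Fyb, the gene of the adaptor ADAP, which links the receptor to integrins, rose by 1.47 ± 0.13, and the calcium pump gene Atp2a3 by 1.01 ± 0.09 (limma adjusted p = 1.5e-04 and 1.6e-04). With the mean of a gene's probe sets the changes were 0.64 for Nck2 (0.73 with 32 added in linear units), 0.84 for Itpr2 and 0.43 for Atp2a3, each still called.

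The lower genes of that list included a calcineurin subunit. Ppp3cc (gamma) went from 6.49 ± 0.06 to 5.55 ± 0.08 (SD, n = 3), a change of -0.94 ± 0.08 (limma adjusted p = 1.3e-04), opposite to Ppp3ca. Cd28, the costimulatory receptor gene, changed by -1.09 ± 0.17 and Rap1a, a small GTPase gene of integrin activation, by -0.38 ± 0.09 (limma adjusted p = 0.0017 and 0.011). The potassium channel gene Kcna3 went from a low 2.02 to 1.42 (-0.06 with 32 added in linear units). Relatives of members, chosen after their values were seen, were Orai2 (1.03), Orai3 (-0.35), Stim2 (0.61), Nfat5 (1.78), Itpr3 (0.95) and Sos2 (-0.41), each past the threshold. With 32 added in linear units these were 0.50, -0.13, 0.50, 0.64, 0.65 and -0.16, and Sos2 was then not called (limma adjusted p = 0.053). Other relatives did not pass, namely Vav2 (-0.28, limma adjusted p = 0.083), Vav3 (0.10), the calcineurin regulatory subunit gene Ppp3r1 (0.08) and the calcium pump gene Atp2a2 (0.0042).

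**Figure D4:**
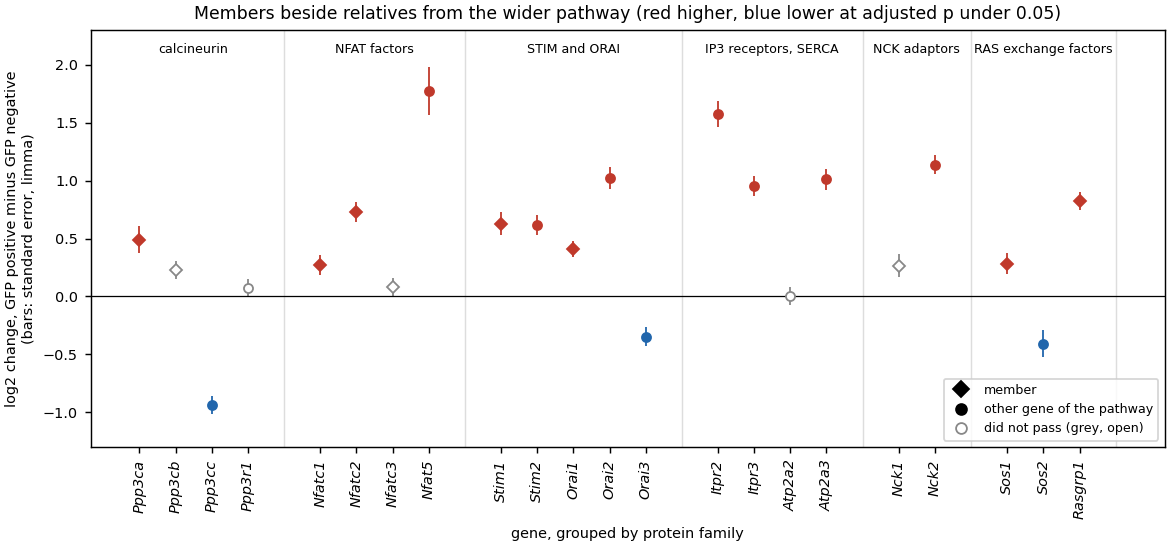
Change (log2, y axis, bars are limma's standard error) of members (diamonds) and of other genes of the pathway (circles) grouped by protein family. Within calcineurin, Ppp3ca lies at 0.49 and Ppp3cc at -0.94; Orai1 and Orai2 lie above zero and Orai3 below; Sos1 lies above zero and Sos2 below.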

How the data were processed

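Per the labels' protocols, biotin-labelled total RNA of each of the 6 sorted samples went onto its own Affymetrix mouse array. The deposited values are log2 signals of 45101 probe sets, a unit read from their range. Affymetrix Expression Console made them, per the submitters' processing notes. Its summarisation algorithm and normalization were not given in the sources used here. No further scaling was applied. The number of arrays limits the precision.

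Probe sets with 1 gene symbol (34945) were kept, and each gene was represented by the set with the highest mean. Genes under the 40th percentile of mean signal over non-control probe sets (1.27) were left out. Groups and numbers came from the sample titles. GFP positive was compared with GFP negative by limma 3.58.1 (R 4.3.3), a two-sided moderated test with group as the only term, adjusted by Benjamini-Hochberg over 13194 genes, with a threshold of 0.05, and the procedure was tested on simulated data. Fits over single probe sets were added after seeing the data. Values in every sample are given for called members with groups apart and a change of at least 0.5, and for the largest changes of each role class. From the other pathway genes, the 4 with the smallest p in each direction are named. The members and lists were chosen with earlier results of these data known.

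Samples with equal replicate numbers deviated together from their group means (correlations over genes of 0.47, 0.35 and 0.25). The titles give the same replica numbers to both groups but do not state that equal numbers are pairs. Alternatives were quantile normalization, median centring, 32 added in linear units, other dim filters, the mean of a gene's probe sets, a trended robust prior, the replicate block and leaving out samples.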

Additional observations from a re-analysis of the deposited data

How the results depend on the processing

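Of the 28 called members, all kept their direction in every alternative run and 18 also kept their call. How many of all called genes did so was not counted. Leaving out 1 sample at a time gave 20 to 24 members higher and 2 to 3 lower, and 2621 to 3171 genes higher and 1594 to 2433 lower. With both GFP negative 1 and GFP positive 3 removed, 20 members were higher and 2 lower, and 2074 and 1251 of all genes, with fewer samples tested. With the replicate block 24 members were higher and 4 lower, Sos1 losing its call and Ppp3cb gaining one, and no other member's call changed. Median centring gave 3819 genes lower, against 2309 as deposited. Some members that did not pass changed sign. After quantile normalization these were Grb2 (-0.0395), Vav1 (-0.0018) and Ptpn6 (-0.0026). After median centring they were Ptprc (-0.0921), Grb2 (-0.0806), Themis (-0.0252), Vav1 (-0.0065), Nfatc3 (-0.0334) and Ptpn6 (-0.10). With the mean of probe sets they were Vav1 (-0.0677), Ppp3cb (-0.0056), Ptpn6 (-0.12), Dgkz (0.0553) and Ubash3a (0.2355, against -0.12 for its brightest probe set). Without GFP negative 1 and GFP positive 3 they were Cd3d (0.0010), Grb2 (-0.0318) and Ptpn6 (-0.0256). The cause was not tested. Leaving out single samples turned the sign of Cd3d (-0.1377 to 0.0018), Ptprc (-0.035 to 0.0689), Grb2 (-0.0195 to 0.0865), Dgkz (-0.0558 to 0.0153) and Ptpn6 (-0.0298 to 0.1001). With 32 added in linear units, which damps low values, Malt1 changed by -0.90, Sos1 by 0.13 and Tespa1 by 0.50, each still called. The part of background in the sizes of dim members was not tested.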
